A study of Mus musculus with 4 samples.

Results

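The genes of oxidative phosphorylation examined here encode the subunits of the 4 respiratory complexes, cytochrome c, the ATP synthase and the factors that assemble them. They were taken as every row of the deposited tables whose symbol carries a family name of this machinery (NDUF, SDH, UQCR, UQCC, COX, COA, SCO, CYC1, CYCS, SURF1, ATP5, ATPAF or ATPIF), whatever its value. The rule found 47 genes among the 3117 genes listed in either table, and all 47 are listed at both gene ends. Of these, 31 encode subunits or cytochrome c and 16 encode assembly factors.

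The samples were 4 libraries of mammalian native elongating transcript sequencing (mNET-seq), which captures short RNA held by RNA polymerase II (Pol II) on nuclease-digested chromatin. The tested cells were B16F10 mouse melanoma cells without Carm1, the coactivator-associated arginine methyltransferase (Carm1 KO), and the control was the parental B16F10 line, an established line labelled WT. Either kind of cell gave 1 library precipitated through Pol II phosphorylated at serine 2 of its carboxy-terminal domain (Ser2P), a mark of elongating polymerase, and 1 through the domain as recognised by antibody 8WG16. Each library pooled 3 sets of cells of its condition, and how the knockout was made, or whether it is a single clone, is not stated in the labels used here. There is therefore 1 value per condition and gene end, no spread between replicates can be measured, and no difference below was tested. In such bulk samples a change in some cells and a smaller change in all cells cannot be told apart.

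Each table gives a value headed as a Ser2 fraction and read here, since values exceed 1, as a ratio of Ser2P signal to another, unnamed signal (Ser2P ratio), 1 for the transcription start site (TSS, 3112 genes) and 1 for the transcription end site (TES, 3030 genes). Either signal can move the ratio, and the ratio is not an expression level. Read depth is unknown. Many ratios are shared exactly with another gene. At the TSS this held for 26 of the 47 respiratory genes in Carm1 KO and 20 in control cells. At the TES it held for 5 in Carm1 KO and 8 in control cells. Of all genes with a ratio above 0, 54.8% shared it at the TSS in Carm1 KO and 39.3% in control cells. At the TES these shares were 24.9% in Carm1 KO and 22.3% in control cells. Single TSS values are therefore coarse. Of 7 melanocyte markers, 5 are listed in either table (Mlana, Pmel, Sox10, Tyr and Tyrp1). Carm1 is not listed, so it has no value here.

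In oxidative phosphorylation, complexes I and II pass electrons from NADH and succinate to ubiquinone, complex III passes them to cytochrome c, and complex IV (cytochrome c oxidase) passes them to oxygen. Complexes I, III and IV pump protons across the inner mitochondrial membrane, and the ATP synthase uses the gradient to make ATP. The genes listed here are nuclear genes, most of them active in nearly every cell. As Pol II moves along a gene its carboxy-terminal domain gains Ser2P, which is generally low near the start and high toward the end.

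Respiratory genes had a higher Ser2P ratio in Carm1 KO than in control cells at both ends, as most genes of the tables did. The median over the 47 genes was 0.216 in Carm1 KO and 0.0831 in control cells at the TSS, and 2.45 in Carm1 KO and 1.35 in control cells at the TES. Over all listed genes these medians were 0.166 in Carm1 KO and 0.0809 in control cells at the TSS, and 2.99 in Carm1 KO and 1.71 in control cells at the TES. The respiratory genes thus had low TES ratios for this series: 32 of 47 lay below the median of all genes in Carm1 KO cells and 35 of 47 did in control cells. At the TSS 20 of them lay above the upper quartile of all genes in Carm1 KO cells and 13 did in control cells, while 12 lay below the lower quartile in Carm1 KO cells and 12 did in control cells.

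**Figure D1:**
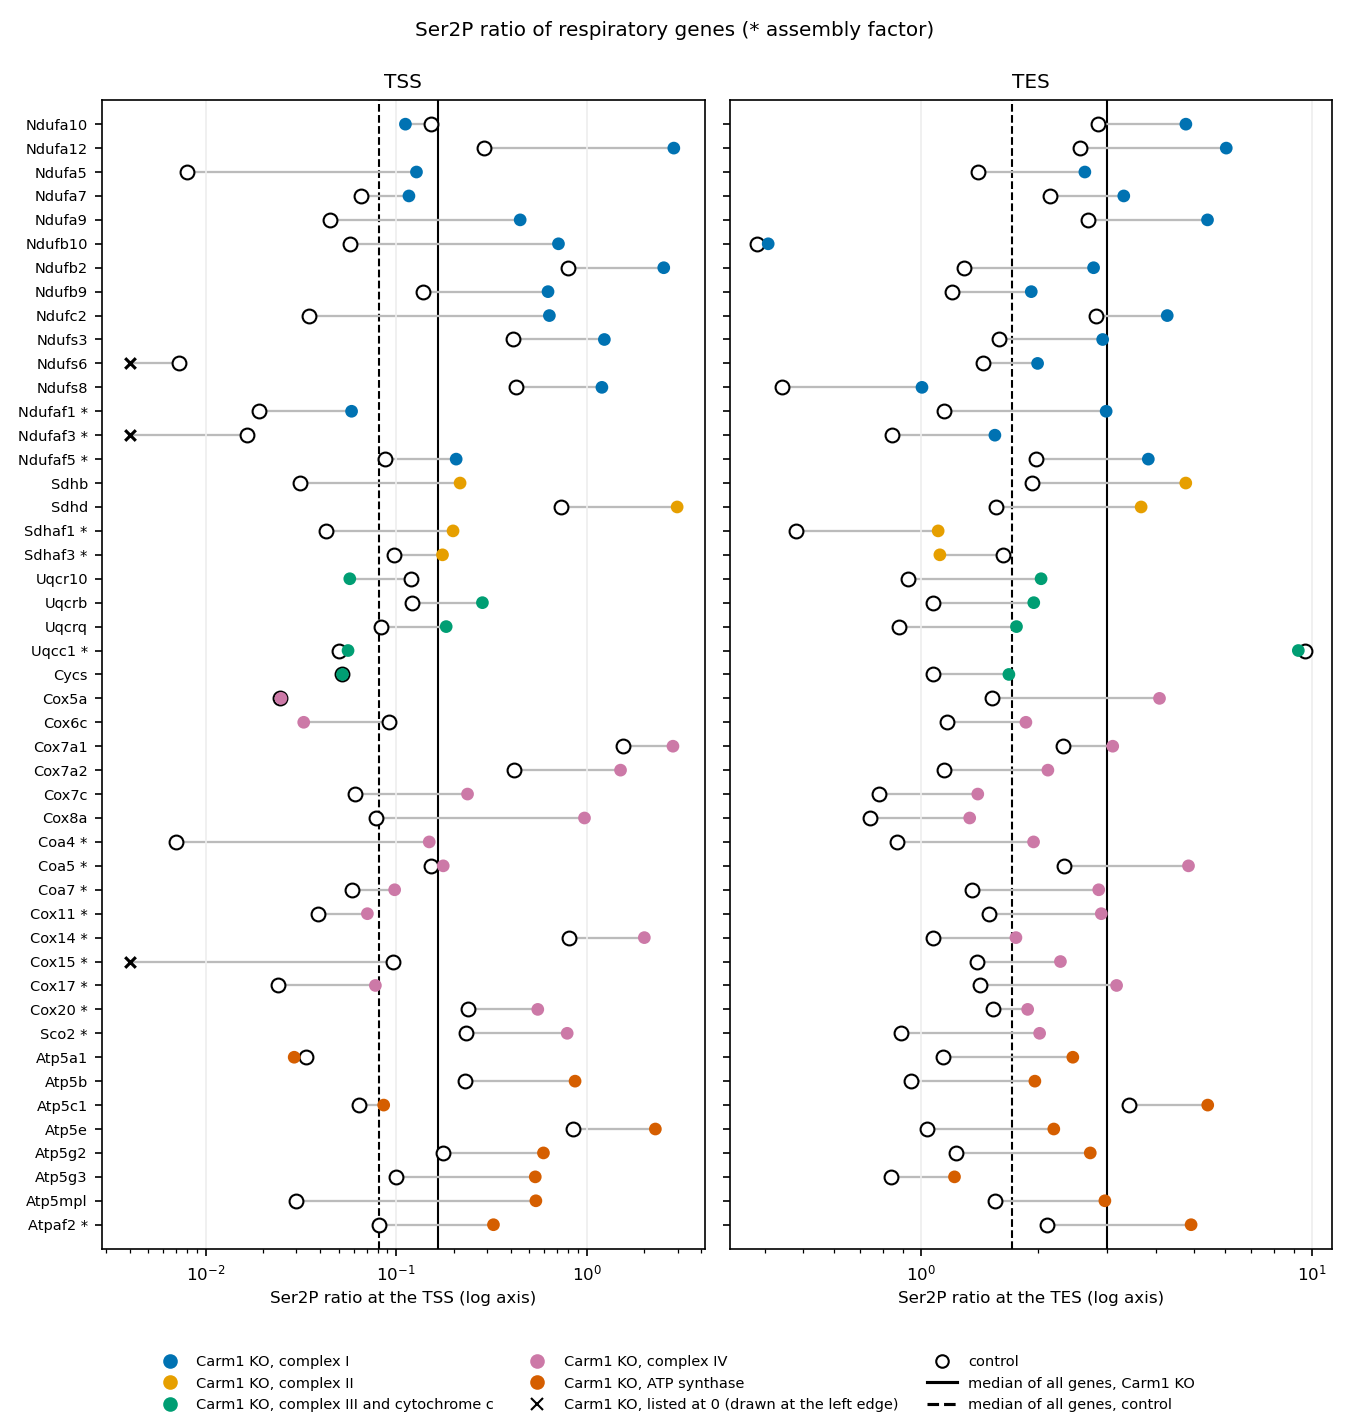
Ser2P ratio of each of the 47 respiratory genes at the TSS (left) and the TES (right), on log axes. Filled points are Carm1 KO, coloured by complex, open points are control, crosses mark 3 genes listed at 0 in Carm1 KO cells, and vertical lines give the medians of all genes (solid Carm1 KO, dashed control). TSS ratios spread from under 0.01 to almost 3, while TES ratios, apart from Uqcc1 near 9 and 10, lie between 0.381 and 6.05.

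At the TSS, 44 of the 47 genes had a ratio above 0 in both conditions and so a fold change. The threshold for a higher or lower ratio was 1.5-fold, or 0.58 on the log2 scale. Past it, 35 of 44 (79.5%) were higher in Carm1 KO cells, against 71.2% of all genes, and 2 of 44 (4.55%) were lower, against 5.60% of all genes. The other 7 lay in between. The median log2 change was 1.61 over the respiratory genes and 1.17 over all genes. At 2-fold, 30 respiratory genes were higher and 2 lower, against 56.7% and 2.90% of all genes, and at 4-fold 13 were higher, against 21.5% of all genes. Of the 286 genes with the largest TSS change, 10% of all genes, 9 were respiratory genes (20.5% of the 44), a limit chosen after the values were seen. They were Coa4, Ndufc2, Atp5mpl, Ndufa5, Ndufb10, Cox8a, Ndufa9, Ndufa12 and Sdhb. All but Ndufa12 had a control ratio below the median of all genes, 0.0809. All but Ndufc2 and Ndufa12 shared a TSS ratio exactly with another gene in Carm1 KO or control cells. These large changes thus rest mostly on small or coarse ratios. Among the 286 genes at the other extreme there were 3.

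At the TES all 47 genes had a fold change. Of these 40 (85.1%) were higher by 1.5-fold or more in Carm1 KO cells, against 66.7% of all genes, and 0 were lower, against 7.13% of all genes. The median log2 change was 0.93 over the respiratory genes and 0.85 over all genes. Their changes lay close together, with quartiles at 0.67 and 1.14, against 0.35 and 1.17 for all genes. At 2-fold 20 were higher and 0 lower, against 37.9% and 4.01% of all genes. None of the 47 stood among the 302 genes with the largest TES change. The share called higher therefore stood above that of all genes, while the median change differed from that of all genes by less than 0.1. All genes include more long ones, whose TES changes were smaller. Their median was 0.22 from 47797 to 76927 bp and -0.09 from 77014 bp, where 0 and 2 respiratory genes fell. Among all genes up to 10 kb it was 0.93. The part of gene length in the shares and quartiles was not tested.

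The scale between the libraries is not given, so the share of genes above 0 depends on it. After the median change of all genes was subtracted at each end, 18 respiratory genes were higher and 9 lower by 1.5-fold at the TSS, against 28.6% and 28.8% of all genes. At the TES 0 were higher and 3 lower, against 11.6% and 22.0% of all genes. By this measure 29 of 44 exceeded the overall median at the TSS and 29 of 47 did at the TES. At the TES the medians of complex I subunits (-0.037), complex II assembly (-0.52), complex IV subunits (-0.0031) and cytochrome c (-0.20) then lay below 0. So did Uqcc1, the only complex III assembly gene that the rule found (-0.90). At the TSS those of complex III subunits (-0.028), cytochrome c (-1.16) and Uqcc1 (-1.01) did, so the directions given below by class hold for the ratios as deposited.

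**Figure D2:**
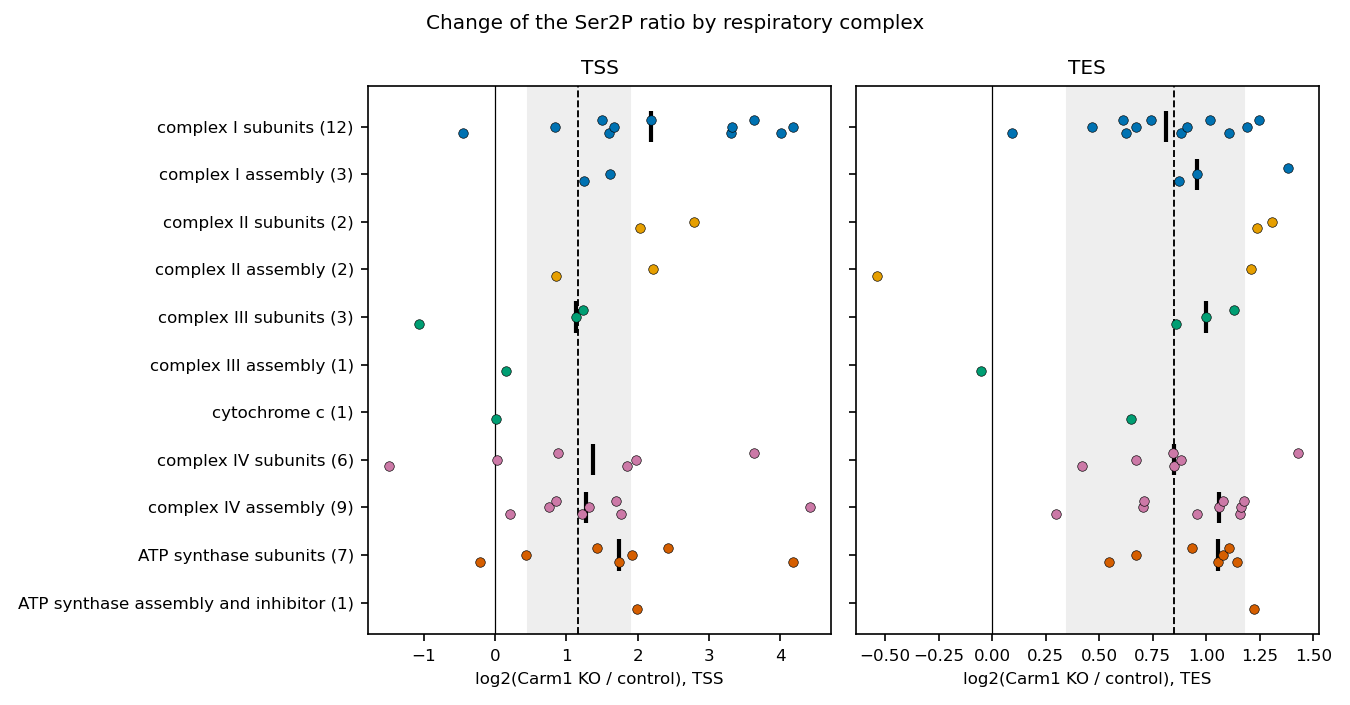
log2(Carm1 KO / control) of the Ser2P ratio for each respiratory gene at the TSS (left) and the TES (right), by class, with the number of genes in brackets. Thick ticks are class medians (drawn where more than 2 genes have a value), the dashed line and the grey band are the median and quartiles of all genes, and the 3 genes listed at 0 are left out at the TSS. Complex I subunits have the highest marked TSS median, 2.18, while at the TES the marked medians lie between 0.81 and 1.06.

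Complex I, the NADH dehydrogenase, is represented by 12 subunit genes. At the TSS 11 had a fold change, 10 of these were higher by 1.5-fold or more in Carm1 KO cells and 0 were lower, against 71.2% and 5.60% of all genes. Their median log2 change was 2.18, against 1.17 for all genes. Ndufc2, a subunit of the membrane arm, had a TSS ratio of 0.637 in Carm1 KO and 0.0350 in control cells (log2 change 4.18). Ndufa5, an accessory subunit of the matrix arm, had 0.128 in Carm1 KO and 0.00797 in control cells (4.0). Both had control ratios below the median of all genes, but the Carm1 KO ratio of Ndufc2 is above the upper quartile of all genes and that of Ndufa5 is below the median. Ndufb10, of the membrane arm, had 0.711 in Carm1 KO and 0.0571 in control cells (3.64). The accessory subunit genes Ndufa9 and Ndufa12 changed by 3.32 and 3.30, and Ndufa12 reached 2.86 in Carm1 KO cells, against 0.290 in control cells.

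The core subunit genes Ndufs3 and Ndufs8, of which Ndufs8 is an iron-sulfur protein, had higher control ratios and smaller changes. Ndufs3 had a TSS ratio of 1.24 in Carm1 KO and 0.410 in control cells, and Ndufs8 had 1.2 in Carm1 KO and 0.425 in control cells. Ndufb9 changed by 2.18, Ndufb2 by 1.66 and Ndufa7, with 0.117 in Carm1 KO and 0.0655 in control cells, by 0.83. Ndufa10 went the other way, with 0.112 in Carm1 KO and 0.153 in control cells, a log2 change of -0.45 that does not reach 1.5-fold. Ndufs6, which encodes a zinc-binding subunit that joins late in assembly, was listed at 0 in Carm1 KO cells and at 0.00729 in control cells, so it has no fold change.

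At the TES 10 of the 12 complex I subunit genes were higher by 1.5-fold or more in Carm1 KO cells and 0 were lower, against 66.7% and 7.13% of all genes. Their median log2 change, 0.81, lay below the 0.85 of all genes. Ndufa12 had a TES ratio of 6.05 in Carm1 KO and 2.55 in control cells, and Ndufs8 had 1.01 in Carm1 KO and 0.442 in control cells. Those 2 had the largest TES changes of the class, 1.24 and 1.19. The smallest was that of Ndufb10, with 0.407 in Carm1 KO and 0.381 in control cells (0.09), followed by Ndufs6 with 1.99 in Carm1 KO and 1.44 in control cells (0.47). Ndufb10 therefore combined one of the largest TSS changes with almost none at the TES. Its end lies within 1 kb of an annotated start or end of the ribosomal protein gene Rps2. Among the respiratory genes, Ndufa9, Ndufb2, Sdhaf1 and Sco2 also have such a neighbour, and their TES changes exceeded the respiratory median. Ndufaf3, Cox7a1 and Cox15 have one too, with TES changes below that median. The part of these neighbours in the TES changes was not tested.

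Among the complex I assembly factors, Ndufaf1, which builds the membrane arm, had a TES ratio of 2.98 in Carm1 KO and 1.14 in control cells (1.38), the largest TES change of the 16 assembly genes. Its TSS ratio was 0.0584 in Carm1 KO and 0.0190 in control cells (1.62). Ndufaf5 had 0.206 in Carm1 KO and 0.0873 in control cells (1.24) at the TSS and 3.82 in Carm1 KO and 1.97 in control cells (0.96) at the TES. Ndufaf3, which acts on the arm that binds ubiquinone, was listed at 0 at the TSS in Carm1 KO cells and at 0.0166 in control cells, but had a TES ratio of 1.55 in Carm1 KO and 0.845 in control cells (0.87).

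Complex II, succinate dehydrogenase, is represented by 2 subunit genes, both higher at both ends. Sdhb, the iron-sulfur subunit, had a TSS ratio of 0.216 in Carm1 KO and 0.0313 in control cells (2.79) and a TES ratio of 4.76 in Carm1 KO and 1.93 in control cells (1.31). Sdhd, a membrane anchor, had a TSS ratio of 2.98 in Carm1 KO and 0.730 in control cells (2.03), the highest Carm1 KO value of all 47 genes at this end. Its TES ratio was 3.66 in Carm1 KO and 1.55 in control cells (1.24). The assembly factor genes Sdhaf1 and Sdhaf3, whose products help Sdhb receive its iron-sulfur clusters, differed at the TES. At the TSS Sdhaf1 had 0.199 in Carm1 KO and 0.0428 in control cells (2.21) and Sdhaf3 had 0.175 in Carm1 KO and 0.0969 in control cells (0.85). At the TES Sdhaf1 had 1.11 in Carm1 KO and 0.480 in control cells (1.21), whereas Sdhaf3 had 1.12 in Carm1 KO and 1.62 in control cells (-0.54), the lowest TES change of the 47 genes and short of 1.5-fold.

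Complex III genes found by the rule are the small subunits Uqcr10, Uqcrb and Uqcrq and the assembly factor Uqcc1. Assembly factors with other names are described further below. Uqcr10 was lower at the TSS, with 0.0571 in Carm1 KO and 0.119 in control cells (-1.06), and higher at the TES, with 2.03 in Carm1 KO and 0.929 in control cells (1.13). Uqcrb had 0.284 in Carm1 KO and 0.121 in control cells (1.23) at the TSS and 1.95 in Carm1 KO and 1.07 in control cells (0.86) at the TES. Uqcrq had 0.183 in Carm1 KO and 0.0831 in control cells (1.14) at the TSS and 1.76 in Carm1 KO and 0.879 in control cells (1.00) at the TES. Both were thus higher at both ends. Uqcc1, which aids the synthesis of cytochrome b, hardly differed at either end. Its TSS ratio was 0.0559 in Carm1 KO and 0.0502 in control cells (0.16), and its TES ratio, the highest of the 47 genes, was 9.25 in Carm1 KO and 9.60 in control cells (-0.05). Cycs, which encodes cytochrome c, had almost the same TSS ratio in both, 0.0523 in Carm1 KO and 0.0521 in control cells, and a TES ratio of 1.68 in Carm1 KO and 1.07 in control cells (0.65).

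Of 6 complex IV subunit genes, 4 were at least 1.5-fold higher at the TSS and 1 was lower, against 71.2% and 5.60% of all genes, with a median log2 change of 1.37, against 1.17. Cox8a had a TSS ratio of 0.973 in Carm1 KO and 0.0787 in control cells (3.63), the largest change of the class. Cox7c had 0.237 in Carm1 KO and 0.0605 in control cells (1.97), and the pair of Cox7a isoform genes had high ratios at this end. Cox7a1, known as the isoform of heart and skeletal muscle, had 2.83 in Carm1 KO and 1.54 in control cells (0.88), and Cox7a2, the widely expressed isoform, had 1.5 in Carm1 KO and 0.416 in control cells (1.85). Cox5a was near 0.02 in both, with 0.0249 in Carm1 KO and 0.0245 in control cells. Cox6c was lower, with 0.0327 in Carm1 KO and 0.0916 in control cells (-1.48).

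At the TES 5 of the 6 were higher and 0 lower, against 66.7% and 7.13% of all genes, with a median of 0.85 as over all genes. Cox5a, close to 0 at the TSS, had the largest TES change of the 47 genes, with 4.08 in Carm1 KO and 1.52 in control cells (1.43). Cox6c had 1.86 in Carm1 KO and 1.17 in control cells (0.67), so it was lower at the start and higher at the end. Cox7a2 had 2.11 in Carm1 KO and 1.15 in control cells (0.88), and Cox8a and Cox7c changed by 0.85 and 0.84. Cox7a1, with the highest control ratio of the class, had 3.10 in Carm1 KO and 2.31 in control cells (0.42).

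The 9 complex IV assembly genes include copper and haem factors. At the TSS 7 of the 8 with a fold change were at least 1.5-fold higher and 0 were lower, against 71.2% and 5.60% of all genes. At the TES 8 of 9 were higher and 0 lower, against 66.7% and 7.13%. The medians were 1.27 at the TSS and 1.06 at the TES, against 1.17 and 0.85 over all genes. Coa4, a small mitochondrial protein with twin cysteine motifs, had the largest TSS change of the 47 genes, with 0.149 in Carm1 KO and 0.00699 in control cells (4.41). Its Carm1 KO ratio is shared with 23 other genes and its control ratio is the lowest of the 47. The copper factor genes Sco2, Cox17 and Cox11 changed by 1.77, 1.69 and 0.85 at the TSS and by 1.17, 1.16 and 0.96 at the TES. Sco2 had a TSS ratio of 0.790 in Carm1 KO and 0.232 in control cells and a TES ratio of 2.01 in Carm1 KO and 0.892 in control cells. Cox17 had a TES ratio of 3.17 in Carm1 KO and 1.41 in control cells. Sco2 and Cox17 were thus more than 2-fold higher at the TES, while Cox11 was 1.94-fold higher. Cox15, an enzyme of haem A synthesis, was listed at 0 at the TSS in Carm1 KO cells and at 0.0967 in control cells, while its TES ratio was 2.28 in Carm1 KO and 1.39 in control cells (0.71). Coa5 had 0.177 in Carm1 KO and 0.152 in control cells (0.21) at the TSS and changed by 1.06 at the TES. Coa7 had 0.0982 in Carm1 KO and 0.0584 in control cells (0.75) at the TSS and changed by 1.08 at the TES. Cox14, which joins early assembly of the complex, had 1.75 in Carm1 KO and 1.08 in control cells (0.70) at the TES and changed by 1.31 at the TSS. Cox20, a chaperone of a mitochondrially encoded subunit, had the smallest TES change of the class, with 1.88 in Carm1 KO and 1.53 in control cells (0.30).

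Of 7 ATP synthase subunit genes, 5 were at least 1.5-fold higher at the TSS and 0 were lower, which is the share of all genes (71.2%). At the TES 6 were higher and 0 lower, against 66.7% and 7.13% of all genes. The medians were 1.74 at the TSS and 1.05 at the TES, against 1.17 and 0.85 over all genes. Genes of the catalytic head differed from each other at the TSS. Atp5b, the beta subunit, had 0.868 in Carm1 KO and 0.231 in control cells (1.91), whereas Atp5a1, the alpha subunit, had 0.0292 in Carm1 KO and 0.0337 in control cells (-0.21) and Atp5c1, the gamma subunit, 0.0860 in Carm1 KO and 0.0640 in control cells (0.43). At the TES Atp5a1 had 2.45 in Carm1 KO and 1.14 in control cells (1.11), Atp5c1 had 5.42 in Carm1 KO and 3.40 in control cells (0.67) and Atp5b changed by 1.05. Atp5e, the epsilon subunit, changed by 1.43 at the TSS and 1.08 at the TES.

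The membrane part of the ATP synthase is represented by Atp5mpl, a small proteolipid, and by Atp5g2 and Atp5g3, which encode the proton-carrying c subunit. Atp5mpl had a TSS ratio of 0.541 in Carm1 KO and 0.0299 in control cells (4.18). Atp5g3 had 0.537 in Carm1 KO and 0.10 in control cells (2.42), and Atp5g2 had 0.593 in Carm1 KO and 0.177 in control cells (1.74). Both c subunit genes reached similar Carm1 KO ratios at the start but differed at the TES, where Atp5g2 had 2.71 in Carm1 KO and 1.23 in control cells (1.14) and Atp5g3 1.22 in Carm1 KO and 0.837 in control cells (0.54). Atpaf2, an assembly factor of the catalytic head, had 0.324 in Carm1 KO and 0.0817 in control cells (1.99) at the TSS and 4.92 in Carm1 KO and 2.1 in control cells (1.22) at the TES.

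Both ends were then compared gene by gene. Of the 44 genes with a fold change at both, 30 (68.2%) were at least 1.5-fold higher at both, against 49.2% of all genes. Only Uqcr10 and Cox6c passed the threshold in opposite directions, lower at the TSS and higher at the TES, as 3.42% of all genes did. The reverse, higher at the TSS and lower at the TES, held for 0 of the 44 and for 127 of all 2775 genes. The TSS change was the larger in 34 of 44 respiratory genes (77.3%) and in 63.4% of all genes. The median of the TES change minus the TSS change was -0.60 over the respiratory genes and -0.40 over all genes, on the log2 scale. A scale factor shared by both ends of a library cancels in this difference, and one that differs between the ends would not.

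**Figure D3:**
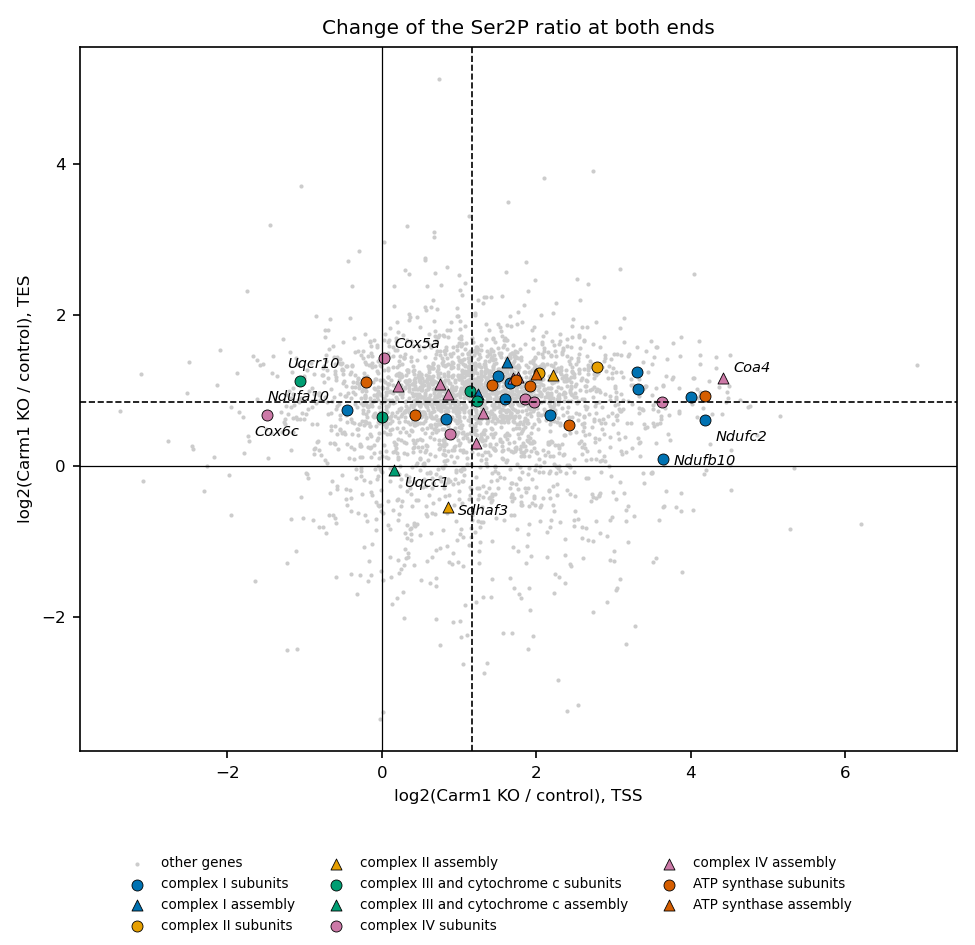
log2(Carm1 KO / control) of the Ser2P ratio at the TSS (horizontal) and the TES (vertical) for the 44 respiratory genes with both values (coloured by complex, circles subunits, triangles assembly factors) and for the other genes (grey). Dashed lines are the medians of all genes. The respiratory genes spread over almost 6 log2 units along the TSS axis but over under 2 along the TES axis.

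Within each condition the TES ratio was set over the TSS ratio of the same gene. The median quotient of the 44 genes was 6.78 in Carm1 KO and 12.8 in control cells, against 15.7 in Carm1 KO and 19.5 in control cells over all genes. For subunits and cytochrome c it was 5.68 in Carm1 KO and 9.13 in control cells, and for assembly factors 16.8 in Carm1 KO and 22.8 in control cells. The quotient was under 2 in 9 of 44 genes (20.5%) in Carm1 KO cells and in 5 (11.4%) in control cells, against 14.1% and 10.1% of all genes. The 9 genes were Ndufb2, Ndufb10, Ndufs8, Sdhd, Cox7a1, Cox7a2, Cox8a, Cox14 and Atp5e. For 4 of them, Ndufb10, Ndufs8, Cox14 and Atp5e, the TSS ratio in Carm1 KO cells exceeded the TES ratio, which held for 0 respiratory genes in control cells. The TES ratio was thus the larger in 40 of 44 respiratory genes in Carm1 KO and 44 in control cells. Over all 2775 genes it was the larger in 2604 in Carm1 KO and 2692 in control cells. Ndufc2 shifted most, with a quotient of 6.71 in Carm1 KO and 79.9 in control cells, followed by Ndufb10 with 0.572 in Carm1 KO and 6.67 in control cells. In the other direction, the quotient of Uqcr10 was 35.6 in Carm1 KO and 7.77 in control cells. Next came Cox6c with 56.7 in Carm1 KO and 12.7 in control cells, and then Cox5a with 164 in Carm1 KO and 62.0 in control cells.

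Many of these quotients are exact ratios of whole numbers. For Uqcc1 the quotient was 496/3 in Carm1 KO and 574/3 in control cells, and for Cox5a 4104/25 in Carm1 KO and 1365/22 in control cells. Within a relative tolerance of 1e-09, a ratio of whole numbers with a denominator of at most 50 was found for 11 of 44 respiratory genes in Carm1 KO and 8 of 47 in control cells, and over all genes for 866 of 2839 in Carm1 KO and 715 of 2921 in control cells. Whether the authors set both ends of a gene against 1 value is not given in the sources used here, and the whole numbers were not read as read counts.

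**Figure D4:**
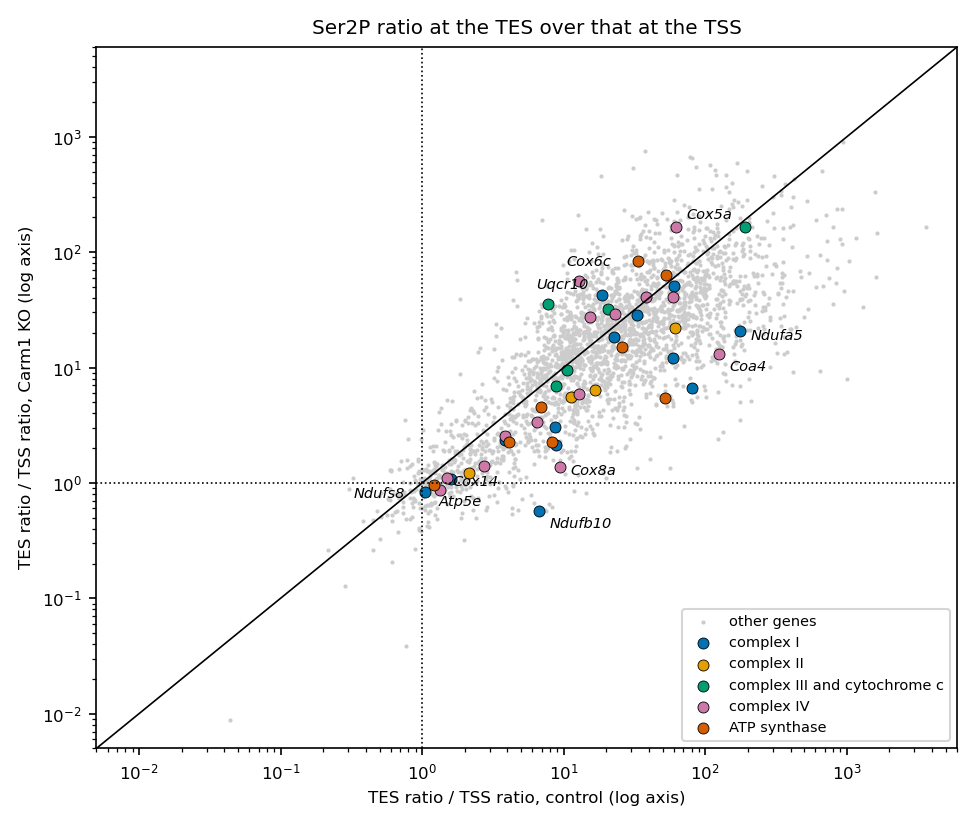
Ser2P ratio at the TES divided by that at the TSS, in Carm1 KO (vertical) and control cells (horizontal), on log axes, for the 44 respiratory genes (coloured) and the other genes (grey). The diagonal marks equal quotients and dotted lines a quotient of 1. Of the 44 genes 34 lie below the diagonal, and Ndufb10, Ndufs8, Cox14 and Atp5e lie below 1 in Carm1 KO cells.

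Gene length and neighbours were set beside these values, from GENCODE M21 on GRCm38, in which all 47 symbols were found. The respiratory genes were short, with a median of 7382 bp and a range of 1898 to 86976 bp, against a median of 18034 bp over all matched genes. The 9 genes with a quotient under 2 in Carm1 KO cells had a median length of 3034 bp, against 9141 bp for the other 35. Among all genes those with such a quotient were short as well, with a median of 6450 bp against 20803 bp. The longest 2 respiratory genes, Sdhaf3 (86976 bp, chromosome 6, 6956004 to 7042979, plus strand) and Uqcc1 (83417 bp, chromosome 2, 155846894 to 155930310, minus strand), were the only ones with a TES log2 change below 0. Among the 299 longest genes of the TES table, from 77014 bp, the median TES change was -0.09. Set against the median of genes of like length (10 groups), the median change of the respiratory genes was 0.43 at the TSS and 0.033 at the TES. Set against genes of like level it was 0.13 at the TSS and 0.032 at the TES. Level was the mean of a gene's Carm1 KO and control ratios at that end. It contains the Carm1 KO value that also forms the change, so the comparison by level is not independent of the change.

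With the genes split at 10 kb, a limit chosen after the values were seen, the TSS change of the 28 shorter respiratory genes had a median of 1.75 and that of the 16 longer ones 0.84. Over all genes the same split gave 1.11 and 1.22. At the TES the medians were 0.92 for 30 shorter and 0.96 for 17 longer respiratory genes, against 0.93 and 0.76 over all genes. These medians were not tested against each other.

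**Figure D5:**
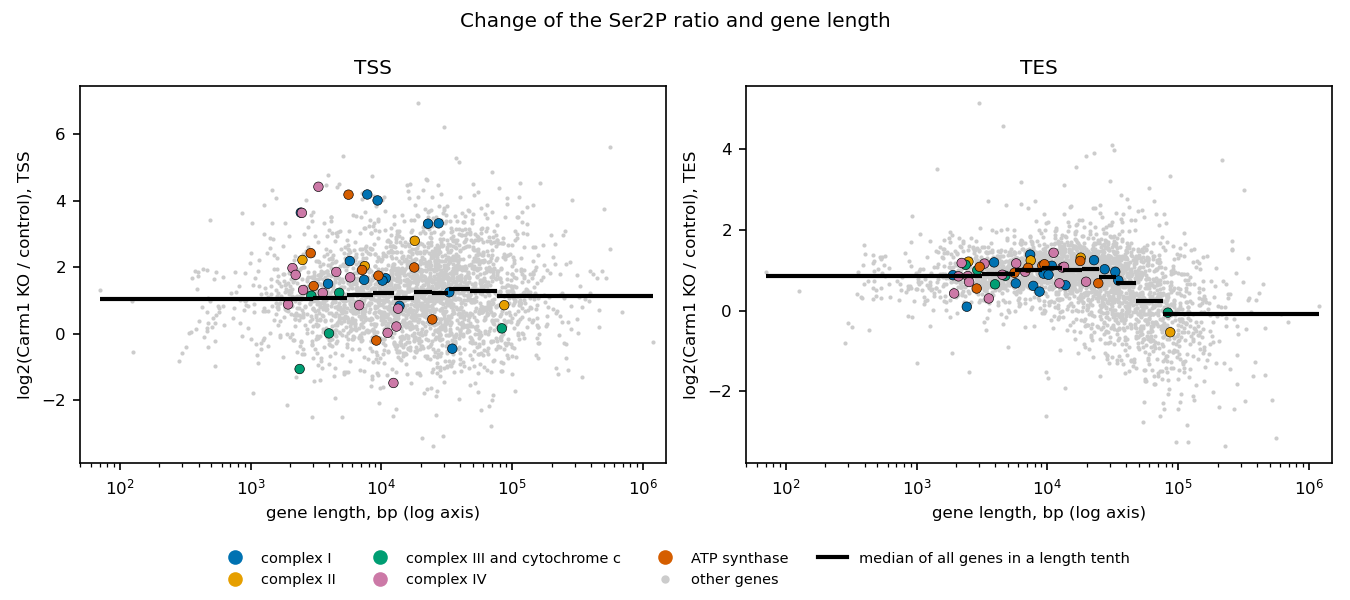
log2(Carm1 KO / control) of the Ser2P ratio at the TSS (left) and the TES (right) against gene length on a log axis, for respiratory genes (coloured by complex) and other genes (grey). Black bars are the medians of all genes in each of 10 length groups. The respiratory genes follow the bars at the TES, with Sdhaf3 and Uqcc1 near the low bar of the longest genes, and scatter around them at the TSS.

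A neighbour's signal may enter a window at the TSS, since the strand setting of the counting is not given. The annotated end of another gene lay within 1 kb of the TSS in 4 of 47 respiratory genes (8.51%) and in 9.44% of all genes. These 4 were Ndufs8 (beside Aldh3b1), Cox14 (beside Gpd1), Atp5e (beside Prelid3b) and Sdhaf1 (beside E130208F15Rik). Their median TSS ratio was 1.60 in Carm1 KO and 0.617 in control cells, against 0.206 in Carm1 KO and 0.0817 in control cells for the other 43. Sdhaf1, with 0.199 in Carm1 KO and 0.0428 in control cells, lay below the medians of the other 43. Over all genes the medians were 1.15 in Carm1 KO and 0.466 in control cells with such an end, and 0.152 and 0.0769 without. Of the 4 genes with a TSS ratio above the TES ratio in Carm1 KO cells, 3 (Ndufs8, Cox14 and Atp5e) have such an end. The part of these neighbours in that order was not tested. Without the 4 genes the median TSS change was 1.64.

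A gene on the opposite strand started within 1 kb of the TSS in 21 of 47 respiratory genes (44.7%) and in 36.5% of all genes. Examples are Sdhd beside Timm8b, Ndufa7 beside Rps28, Uqcr10 beside Zmat5 and Atp5c1 beside Kin. The median TSS ratio of these 21 was 0.175 in Carm1 KO and 0.0967 in control cells, and that of the other 26 was 0.492 in Carm1 KO and 0.0696 in control cells. Over all genes it was 0.155 in Carm1 KO and 0.0783 in control cells with such a partner and 0.170 in Carm1 KO and 0.0827 in control cells without. The part of the partners in the changes was not tested. The 3 genes listed at 0 in Carm1 KO cells, Ndufs6 (beside Mrpl36), Ndufaf3 (beside 4833445I07Rik) and Cox15 (beside Cutc), all have one. Over all genes 194 of 3112 were listed at 0 there in Carm1 KO cells, a share like that of 3 of 47. A TSS change could be computed for 18 of the 21 respiratory genes with a partner, and for 1017 of 1127 matched genes with one. How many of all genes at 0 have a partner was not computed.

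Promoters were read from RefSeq (GRCm38.p6), as 300 bases around its annotated start, most of them upstream. This was done for the 40 respiratory genes that matched its table (all but Atp5a1, Atp5mpl, Cox17, Cox6c, Ndufb9, Uqcrb and Uqcrq). The RefSeq start lay 1520, 1423 and 1305 bp from the GENCODE start in Sdhaf1, Atpaf2 and Atp5g2, and 323 and 315 bp in Ndufa5 and Ndufa12. They were searched on both strands for letters that nuclear respiratory factor 1 (NRF1, GCGC, any base, then TGCGC), the ETS factor GABP (CCGGAAG) and YY1 (AAGATGG followed by CGGC) are known to bind, and for the TATA box (TATAAA). These factors are known regulators of respiratory genes. The NRF1 letters stood in 7 of 40 promoters (17.5%), against 12.4% of the promoters of table genes and 4.60% of all promoters. The GABP letters stood in 13 (32.5%), against 26.6% and 8.86%, and the YY1 letters in 3 (7.50%), against 2.91% and 0.633%. The shorter YY1 core AAGATGG, which lies within the longer one, stood in 5 (12.5%), against 9.56% and 6.34%. TATAAA stood in 2 (5.00%), against 6.25% and 13.6%. The median number of CpG was 20, against 23 in table genes and 7 in all promoters. Among the genes with distant RefSeq starts, the counts include GABP letters in Sdhaf1, YY1 letters in Atpaf2 and NRF1 letters in Atp5g2 and Ndufa5. A match describes letters and shows no binding.

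Promoters of 4 genes are shown because their TSS ratios differ widely, with matched letters in capitals: Coa4 with the largest change, Sdhd with the highest Carm1 KO ratio, Ndufs6 listed at 0 in Carm1 KO cells, and Uqcr10 as one of the 2 genes lower in Carm1 KO cells. Each is given 5′ to 3′ on the strand of its gene. They lie at chr7:100536850-100537149 (plus), chr9:50603800-50604099 (minus), chr13:73328433-73328732 (minus) and chr11:4704295-4704594 (minus). The capitals mark GABP letters in Coa4, NRF1 letters and then GABP letters in Sdhd, and NRF1 letters and then YY1 letters in Ndufs6, while Uqcr10 holds no match. In Sdhd both matches lie on the opposite strand, so the capitals there are the reverse complement of the letters searched.
Coa4: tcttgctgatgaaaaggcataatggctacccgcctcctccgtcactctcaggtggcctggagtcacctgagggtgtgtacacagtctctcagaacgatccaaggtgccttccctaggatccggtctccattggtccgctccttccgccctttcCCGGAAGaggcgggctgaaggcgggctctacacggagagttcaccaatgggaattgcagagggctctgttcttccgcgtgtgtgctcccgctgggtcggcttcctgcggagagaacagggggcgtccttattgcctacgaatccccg
Sdhd: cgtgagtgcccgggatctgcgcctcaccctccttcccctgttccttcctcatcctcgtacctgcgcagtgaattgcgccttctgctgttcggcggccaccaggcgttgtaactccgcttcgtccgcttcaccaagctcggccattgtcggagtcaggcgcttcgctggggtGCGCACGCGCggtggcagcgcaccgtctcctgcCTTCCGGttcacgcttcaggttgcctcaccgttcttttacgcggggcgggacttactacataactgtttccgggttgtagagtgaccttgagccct
Ndufs6: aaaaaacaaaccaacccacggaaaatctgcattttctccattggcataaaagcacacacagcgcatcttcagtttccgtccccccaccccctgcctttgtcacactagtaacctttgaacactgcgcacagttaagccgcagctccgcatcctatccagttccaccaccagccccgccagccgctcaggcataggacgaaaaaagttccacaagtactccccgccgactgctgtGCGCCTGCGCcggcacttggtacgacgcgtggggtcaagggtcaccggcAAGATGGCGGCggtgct
Uqcr10: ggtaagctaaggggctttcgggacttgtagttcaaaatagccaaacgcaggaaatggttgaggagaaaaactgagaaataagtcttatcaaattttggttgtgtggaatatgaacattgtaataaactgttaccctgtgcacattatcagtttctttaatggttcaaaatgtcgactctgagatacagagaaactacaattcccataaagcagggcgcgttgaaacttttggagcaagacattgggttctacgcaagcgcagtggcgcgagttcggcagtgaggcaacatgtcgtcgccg

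Genes around oxidative phosphorylation were described from 4 further lists. For reading their counts, 71.2% of all genes were higher and 5.60% lower at the TSS with a median of 1.17, and 66.7% were higher and 7.13% lower at the TES with a median of 0.85. Of 32 assembly factors with other names, 16 are listed, and 11 of 14 with a fold change were higher by 1.5-fold or more in Carm1 KO cells at the TSS and 0 lower, with a median of 1.06. At the TES 12 of 16 were higher and 0 lower, with a median of 0.83, so both medians lay below those of all genes. Tmem70, an ATP synthase assembly factor, changed by 3.10 and 1.47, Lyrm7, of complex III assembly, by 0.83 and 1.54, and Slirp, which binds mitochondrial messenger RNA, by -0.22 and 1.38, at the TSS and TES in turn. Acad9, which acts with Ndufaf1, was listed at 0 at the TSS in Carm1 KO cells, as 3 respiratory genes were, and changed by 0.13 at the TES.

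Of 16 genes of the citric acid cycle and pyruvate dehydrogenase, 6 are listed at the TSS and 5 at the TES. At the TSS 5 were at least 1.5-fold higher and 0 lower, with a median of 1.71, and at the TES 5 of 5 were higher, with a median of 1.07 and a range of 0.99 to 1.37. Idh3a had a TES ratio of 3.69 in Carm1 KO and 1.43 in control cells. Of 19 genes for electron entry to ubiquinone and for its synthesis, 7 are listed at the TSS, with 5 higher, 0 lower and a median of 1.53, and 5 at the TES, with 4 higher, 0 lower and a median of 1.29. Coq9, which aids ubiquinone synthesis, changed by -0.42 at the TSS and 1.96 at the TES.

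Of 13 genes for transcriptional regulators of the respiratory system, 6 are listed, and 2 of 4 with a fold change were higher at the TSS and 4 of 6 at the TES, with 0 lower at either. Their medians, 0.68 at the TSS and 0.83 at the TES, lay below those of all genes. Gabpa, a subunit of GABP, changed by 0.78 at the TSS and 1.36 at the TES. Gabpb1, another subunit, was listed at 0.383 at the TSS in Carm1 KO cells and at 0 in control cells. Nrf1 was listed at 0 at the TSS in Carm1 KO cells and at 0.0190 in control cells, and its TES ratio was 18.3 in Carm1 KO and 9.84 in control cells (0.90).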

How the data were processed

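The labels describe 4 mNET-seq libraries, 1 per antibody and condition. After nuclease digestion 3 sets of cells of a condition were combined, per the labels' protocols. The submitters' processing notes name cutadapt 1.18, TopHat2 2.1.1, mm10 and GRCm38, without settings. Per the file headers the authors deposited a Ser2 fraction for Carm1 KO and control cells at the TSS and the TES. How it was made is not stated, and since the deposited values reach 11.1 (TSS) and 38.9 (TES) they were read as a linear ratio to an unnamed signal. Window width, divisor, scaling, strand and gene choice: not given in the sources used here. The other deposited column, of no unit of its own, is the authors' difference, which equalled Carm1 KO minus control within 1e-09 in all genes and was not used. Columns were assigned to conditions by their names.

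Changes are log2(Carm1 KO / control) with no pseudocount, and a gene at 0 in either condition has no fold. With 1 library per group no test was run. Counts at 1.5-fold and medians were also computed over all genes of the table. Symbols were matched to GENCODE M21 (3084 of 3117). The members, lists and alternatives were chosen with earlier results of these data known. Every member may be named. Both ratios are given at least for the 2 genes per class and gene end that changed most in either direction, for genes at 0 and for genes of opposite direction. The fold functions were tested on simulated data. Python 3.11.15, numpy 2.4.6, pandas 2.3.3 and matplotlib 3.10.9 were used.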

Additional observations from a re-analysis of the deposited data

How the results depend on the processing

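No paired analysis was possible because each condition has 1 library. For the same reason no replicate was left out. The causes of the shifts below were not tested, and read depth, which is unknown, limits all single TSS values.

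At the TSS, 35 genes higher, 2 lower and a median log2 change of 1.61 became 18, 9 and 0.44 relative to the median of all genes, 18, 9 and 0.43 relative to that of genes of like length, and 16, 9 and 0.13 relative to that of genes of like level (10 groups each). Of all genes 28.6%, 28.7% and 28.9% were then higher and 28.8%, 28.8% and 26.3% lower, in the same order. Level was the mean of both ratios, which includes the Carm1 KO value. A pseudocount of 0.01 gave 5 of 47 lower and a median of 1.36, against 9.06% and 1.01 over all genes. Leaving out genes with a shared ratio gave 13 higher of 13, 0 lower and 1.59, against 77.5%, 2.87% and 1.21 over all genes. Leaving out genes with another gene's end near the TSS gave a median of 1.64, against 1.14 over all genes. Subunits only gave 23 higher of 30 and 1.70, against 71.1% and 1.17 over all genes without the assembly factors.

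At the TES, 40 higher, 0 lower and a median of 0.93 became 0, 3 and 0.081 relative to all genes, 0, 2 and 0.033 for like length and 0, 4 and 0.032 for like level. Of all genes 11.6%, 13.2% and 12.1% were then higher and 22.0%, 16.3% and 19.8% lower, in the same order. A 2-fold threshold left 20 of 47 higher, against 37.9% of all genes. The median was 0.89 with a pseudocount of 0.1, 0.91 without genes near another gene's end, 0.88 for subunits only and 0.96 for genes with a fold at both ends. Over all genes these 4 settings gave 0.80, 0.83, 0.85 and 0.85. The median TES minus TSS change, -0.60, became -0.28 relative to all genes, -0.40 for like length and -0.16 for like level. It was -0.71 without shared ratios (9 genes) and -0.66 for subunits only. Over all genes -0.40 became -0.083, -0.026 and -0.072, and then -0.29 and -0.40, in the same order.

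Signs of called changes turned only on subtraction of a median. With that of all genes, the class medians at the TES became -0.037 for complex I subunits, -0.20 for cytochrome c and -0.0031 for complex IV subunits, and -0.028 at the TSS for complex III subunits. With that of like length the TES medians of complex I subunits, cytochrome c and complex IV subunits were -0.14, -0.25 and -0.014. Of single genes at the TSS, Coa7 became -0.42, Cox11 -0.31, Cox7a1 -0.29, Ndufa7 -0.33, Sdhaf3 -0.31 and Uqcrq -0.028. At the TES, Atp5c1 became -0.18, Cox14 -0.15, Cox15 -0.14, Cox6c -0.18, Cox7c -0.0063, Cox8a -1.93e-05, Cycs -0.20, Ndufa10 -0.11, Ndufa7 -0.23, Ndufb9 -0.18 and Ndufc2 -0.24.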
